A study of Zea mays and Oryza sativa with 119 samples.

Results

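CER1 (GRMZM2G099097), gl1 (GRMZM2G114642) and LTP3 (GRMZM2G126397) are 3 maize genes of surface wax and lipid transfer, taken by identifier from the 110005 features of the maize expression table. All 3 were among the 23052 genes with a mean of at least 1 FPKM (fragments scaled by transcript length and by the mapped fragments of a library) that entered the tests. They were selected on their measured FPKM along the leaf sections, seen in earlier results of these data, so their levels and the differences between sections are a description and carry no test. The names come from a reference table that matches identifiers to symbols, and this table gives the name CER1 also to a second gene, GRMZM2G066578.

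The material was the third leaf of 9-day seedlings of the inbred line B73, grown in a light and dark cycle, with no treatment or mutant. Cutting gave 15 pieces of 1 cm per leaf, and the numbering runs from 1 to 4 and from 6 to 16. There were 5 replicates, numbered 1, 2, 3, 4 and 6, each a pool of 7 plants on average collected on a date of its own, and polyadenylated RNA was sequenced from whole sections. The study's stated interest, by its title, is how C4 photosynthesis differentiates. Which end of the leaf section 1 came from is not stated in the labels.

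Leaf surfaces are sealed by a cuticle, a layer of cutin and waxes made by the epidermis. Wax synthesis begins with the stretching of fatty acids to very long chains, and part of these chains is then turned into aldehydes, alcohols and alkanes. In Arabidopsis, the CER1 protein works with CER3 in the formation of alkanes. Maize gl1 (glossy1) encodes a relative of the Arabidopsis CER3 protein, and seedlings that lack it have leaves with little wax and a glossy surface. Lipid transfer proteins such as that named by LTP3 are small proteins, mostly secreted, that bind lipids. They form a large family of similar genes, so the share of reads that the counting assigned to LTP3 is uncertain.

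Of 75 libraries, 69 were used and 6 were left out, namely section 1 replicate 2, section 3 replicate 6 and section 7 replicates 2, 3, 4 and 6. Section 7 therefore rests on replicate 1 alone, sections 1 and 3 on 4 libraries each, and every other section on 5. Read totals are not part of the table. Depth relative to the median library, read from the smallest steps of low values, was 0.105 to 1.68 in the used libraries and 0.0039 to 0.0625 in those left out. Of the tested genes, 6.16% to 33.0% were at 0 in a used library, against 39.3% to 91.0% in a library left out. An exact 0 can be a failed estimate. In 659 pairs of gene and library, the value was 0 while all other used libraries of that section had at least 20 FPKM. Exact 0 values are given here as listed at 0, library by library. Every library was compared with section means made from libraries of other replicate numbers. Of 69, 46 matched their own section best and 18 a neighbouring one. The 18 include section 7 replicate 1, whose section had no other used library to match. The exceptions farthest from their label were section 12 replicate 4, which matched section 9 best, section 14 replicate 2, which matched section 4, and section 16 replicate 3, which matched section 12. Section 14 replicate 3 matched section 12 best and section 15 replicate 4 matched section 14. Values below are in the order of the replicate numbers.

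gl1 was close to the floor in section 1, highest in section 4 and lower from there to section 16. From section 6 on its mean percentile among the tested genes was still 91.0 to 98.6. In section 1 it had 0.889, 0.962, 1.20 and 1.43 FPKM in replicates 1, 3, 4 and 6, a mean of 1.12 ± 0.25 (SD, n = 4). In section 2 the values were 12.2, 15.8, 12.2, 18.0 and 98.8 FPKM, and in section 3 they were 143, 172, 168 and 174 FPKM in replicates 1 to 4. No library of these 3 sections reached the range of the next section. Replicate 6 of section 2 stood far above the others, and without it the mean of section 2 was 14.5 ± 2.9 FPKM (SD, n = 4) in place of 31.4 ± 37.8 (SD, n = 5).

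Section 4 held the highest level of gl1, with 605, 684, 665, 676 and 363 FPKM and a mean of 598 ± 135 (SD, n = 5). The low library was again replicate 6, and the mean was 657 ± 36.0 FPKM (SD, n = 4) without it. That library matched section 6 slightly better than its own section, with r = 0.936 against 0.932 across genes. In section 6 the values were 399.6, 412, 402, 406 and 442 FPKM, a mean of 412 ± 17.3 (SD, n = 5). The ranges of sections 4 and 6 overlapped only through replicate 6. Replicates 1 to 4 had their highest gl1 value in section 4 and replicate 6 had it in section 6. The mean of section 4 was 534 times that of section 1.

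Past section 6 the gl1 level was lower step by step. It was 198 FPKM in the 1 library of section 7, and 149.7, 152, 113, 163 and 120.3 FPKM in section 8. Section 9 had 76.9, 79.3, 89.2, 88.6 and 75.1 FPKM, a mean of 81.8 ± 6.6 (SD, n = 5), and the mean of section 4 was 7.31 times this. In the order of levels the ranges of sections 6, 7 and 3 were apart from each other, and so were those of sections 8 and 9. Section 10 had 60.9, 68.6, 63.5, 64.4 and 60.5 FPKM and section 11 had 61.9, 51.7, 56.5, 58.0 and 53.9 FPKM.

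From section 12 on, most libraries stayed between 36.8 and 61.7 FPKM of gl1, and single libraries stood above them. Section 12 had 59.4, 61.7, 59.1, 146 and 53.9 FPKM, and section 13 had 36.9, 45.2, 40.0, 54.0 and 53.9 FPKM. Section 14 had 42.9, 108, 108, 44.0 and 50.4 FPKM, and section 15 had 39.3, 39.7, 37.4, 131 and 36.8 FPKM. Section 16 closed the series with 43.9, 42.2, 93.1, 43.6 and 84.7 FPKM. The high libraries were section 12 replicate 4, section 14 replicates 2 and 3, section 15 replicate 4 and section 16 replicates 3 and 6. In section 16 replicate 6 the FPKM of all features summed to 1689980, against at most 1199820 in any other used library. The gl1 percentile among the tested genes was 91.0 there, against 90.6 to 90.7 in replicates 1, 2 and 4 and 94.9 in replicate 3. The other high libraries matched a section other than their own best, as did several libraries with usual gl1 levels, mostly by 1 step. Without the high library the mean was 58.5 ± 3.3 FPKM (SD, n = 4) in section 12 and 38.3 ± 1.4 FPKM (SD, n = 4) in section 15. In the order of levels, the neighbours from section 9 down to section 2 all overlapped. Sections farther apart in that order could still be apart, as all libraries of section 10 were above all of section 13. No used library listed gl1 at 0.

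**Figure D1:**
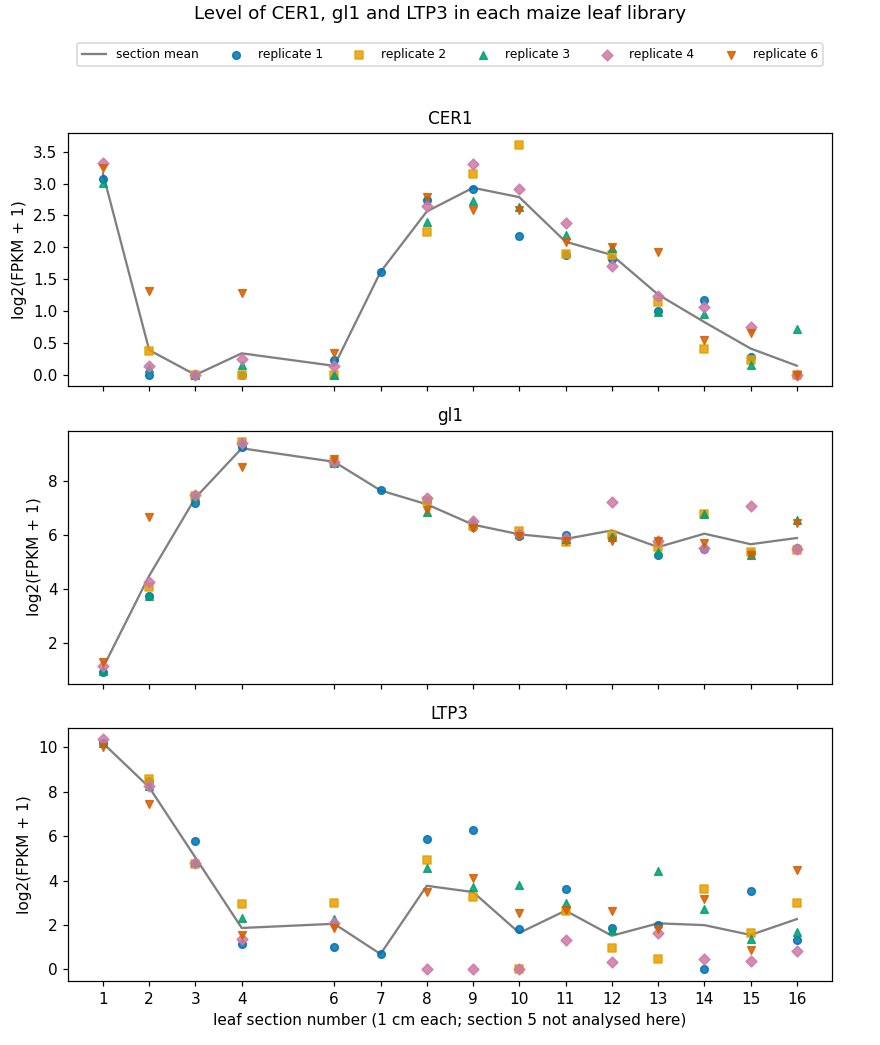
Level of CER1, gl1 and LTP3 as log2(FPKM + 1) in each used library (points, 1 colour and shape per replicate) and the mean of each leaf section on that scale (line), by section number. LTP3 is highest in section 1 (mean 1170 FPKM), gl1 in section 4 (mean 598 FPKM), and CER1 shows a high in section 1 and another around sections 8 to 10.

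CER1 was low throughout, with a maximum of 11.2 FPKM in any used library, and it had separate highs at section 1 and at sections 8 to 10. In section 1 it had 7.36, 7.00, 9.05 and 8.43 FPKM in replicates 1, 3, 4 and 6, a mean of 7.96 ± 0.95 (SD, n = 4). In section 2 the values were 0, 0.292, 0.0820, 0.101 and 1.49 FPKM. All 4 libraries of section 3 listed CER1 at 0. The library of section 3 left out had 5.16 FPKM, at the shallow depth for which it was set aside. Section 4 had 0, 0, 0.113, 0.184 and 1.45 FPKM, and section 6 had 0.175, 0, 0, 0.101 and 0.262 FPKM. All libraries of sections 2 to 6 were thus below all of sections 1 and 8. Replicate 6 held the highest value in section 2, section 4 and section 6.

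CER1 was again higher past section 6, with 2.06 FPKM in section 7 and 5.65, 3.73, 4.29, 5.26 and 5.88 FPKM in section 8, a mean of 4.96 ± 0.92 (SD, n = 5). Section 9 had 6.53, 7.87, 5.59, 8.90 and 4.97 FPKM, a mean of 6.77 ± 1.61 (SD, n = 5). Section 10 had 3.51, 11.2, 5.23, 6.57 and 5.02 FPKM, a mean of 6.30 ± 2.93 (SD, n = 5). The ranges of sections 1, 8, 9 and 10 formed a chain of overlaps in the order of their means, 1, 9, 10 and 8. Past section 6, CER1 was highest in section 9 in replicates 1, 3 and 4, in section 10 in replicate 2 and in section 8 in replicate 6.

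The decline of CER1 after section 10 was gradual. Section 11 had 2.70, 2.70, 3.60, 4.21 and 3.23 FPKM, and section 12 had 2.52, 2.68, 2.97, 2.25 and 3.02 FPKM. Section 13 had 1.01, 1.21, 0.983, 1.36 and 2.79 FPKM. The means of sections 11, 12 and 13 were 3.29 ± 0.64, 2.69 ± 0.32 and 1.47 ± 0.75 FPKM (SD, n = 5 each), and each of these ranges overlapped the next. Section 14 had 1.26, 0.317, 0.940, 1.08 and 0.462 FPKM, and section 15 had 0.209, 0.180, 0.107, 0.678 and 0.577 FPKM. In section 16 only replicate 3 was above 0, at 0.643 FPKM, and that library matched section 12 best. In all, 13 of 69 used libraries listed CER1 at 0. The second gene named CER1, GRMZM2G066578, had a mean of 0.443 FPKM over all used libraries, too low for the tests, and was highest in section 15 at 0.989 ± 0.45 FPKM (SD, n = 5).

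LTP3 was among the most abundant transcripts of section 1 and stepwise lower to section 4. In section 1 it had 1154, 1181, 1311 and 1034 FPKM in replicates 1, 3, 4 and 6, a mean of 1170 ± 114 (SD, n = 4). In section 2 the values were 358, 374, 307, 305 and 171 FPKM, a mean of 303 ± 79.8 (SD, n = 5). In section 3 they were 54.0, 26.0, 27.2 and 26.4 FPKM in replicates 1 to 4, a mean of 33.4 ± 13.7 (SD, n = 4). These ranges did not overlap, and the means stood 3.86 times apart between sections 1 and 2 and 9.07 times between sections 2 and 3. Section 4 had 1.21, 6.62, 3.98, 1.62 and 1.92 FPKM, a mean of 3.07 ± 2.25 (SD, n = 5), and the means of sections 3 and 1 were 10.9 and 381 times this. Section 6 was alike, with 1.02, 7.00, 3.88, 3.24 and 2.69 FPKM, and section 7 had 0.613 FPKM.

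Sections 8 and 9 showed LTP3 at scattered levels. Section 8 had 56.8, 29.1, 22.5, 0 and 10.3 FPKM, and section 9 had 77.5, 8.62, 12.2, 0 and 16.4 FPKM. Replicate 1 was the highest library in both sections and replicate 4 was listed at 0 in both, so the sections overlapped widely with sections 3, 4 and 6. The histone gene H4C13, of a family of near-identical copies among which reads can be split, was also highest in section 1. It had 108, 30.6, 26.3, 17.3 and 0 FPKM in section 8 and 107, 0.773, 13.4, 9.24 and 0.883 FPKM in section 9. The elongation gene AD1 had 8.11, 6.56, 4.27, 0 and 0 FPKM in section 8 and 7.22, 0, 1.07, 0.437 and 2.44 FPKM in section 9. Both were highest in replicate 1, as LTP3 was. Another elongation gene, fae1, had 15.1, 22.2, 11.8, 2.74 and 3.68 FPKM in section 8, highest in replicate 2. In section 9 fae1 had 14.0, 5.13, 4.37, 3.77 and 9.37 FPKM, highest in replicate 1. The stomatal marker pan1 was highest in replicate 6 in section 8, at 2.57 FPKM, and in replicate 1 in section 9, at 1.83 FPKM. Relative depth was 0.5, 0.25, 0.210, 0.177 and 0.149 in section 8. In section 9 it was 0.841, 0.354, 0.5, 0.595 and 0.297. Replicate 1 was the deepest library of both sections, and the part of depth in these values was not tested. The summed level of 4 genes of dividing cells ranged from 0 to 114 FPKM in section 8 and from 0.773 to 113 FPKM in section 9, against 1803 to 2281 FPKM in section 1, and its part in the LTP3 values was not tested. In section 1 and in replicate 1 of sections 8 and 9 most of this sum was H4C13. Of the others, PCNA, a clamp of DNA replication, was listed at 0 in all 5 libraries of section 8 and reached 1.03 FPKM in section 9, and pcna2 and the ribonucleotide reductase gene RNRS3 were highest in replicate 1 in both sections, at 1.18 and 4.50 FPKM in section 8 and 2.05 and 3.57 FPKM in section 9.

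From section 10 on LTP3 stayed low in most libraries. Section 10 had 2.56, 0, 13.1, 0 and 4.89 FPKM, section 11 had 11.2, 5.21, 7.03, 1.48 and 5.37 FPKM, and section 12 had 2.68, 0.980, 2.38, 0.267 and 5.15 FPKM. Section 13 had 2.94, 0.393, 20.8, 2.09 and 2.57 FPKM, and section 14 had 0, 11.1, 5.50, 0.395 and 8.10 FPKM. The spread within a section was as wide as the distance between sections, and every pair of neighbours in the order of LTP3 levels below section 2 overlapped. Section 15 had 10.4, 2.11, 1.57, 0.283 and 0.842 FPKM, and section 16 had 1.52, 6.98, 2.19, 0.795 and 21.3 FPKM. LTP3 was listed at 0 in 5 of 69 used libraries. Each of the 4 replicates with a used library of section 1 had its highest LTP3 value there, and replicate 2, without one, had it in section 2.

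The 3 genes differed in rank as well as in course. By percentile among the tested genes of the same library, LTP3 stood on average at 99.7 in section 1 and at 28.4 in section 4. gl1 stood at 16.0 in section 1 and at 98.9 in section 4. CER1 stood at 54.0 in section 1, at 8.18 in section 4 and at 64.6 in section 9. By rank section 9 was thus above section 1, whereas by FPKM the mean of section 1 was 1.18 times that of section 9. A percentile also depends on how many other genes are at 0. Of the tested genes, 7.38% to 12.4% were at 0 in the used libraries of section 1 and 10.5% to 21.7% in section 9. The part of this in the ranks was not tested.

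**Figure D2:**
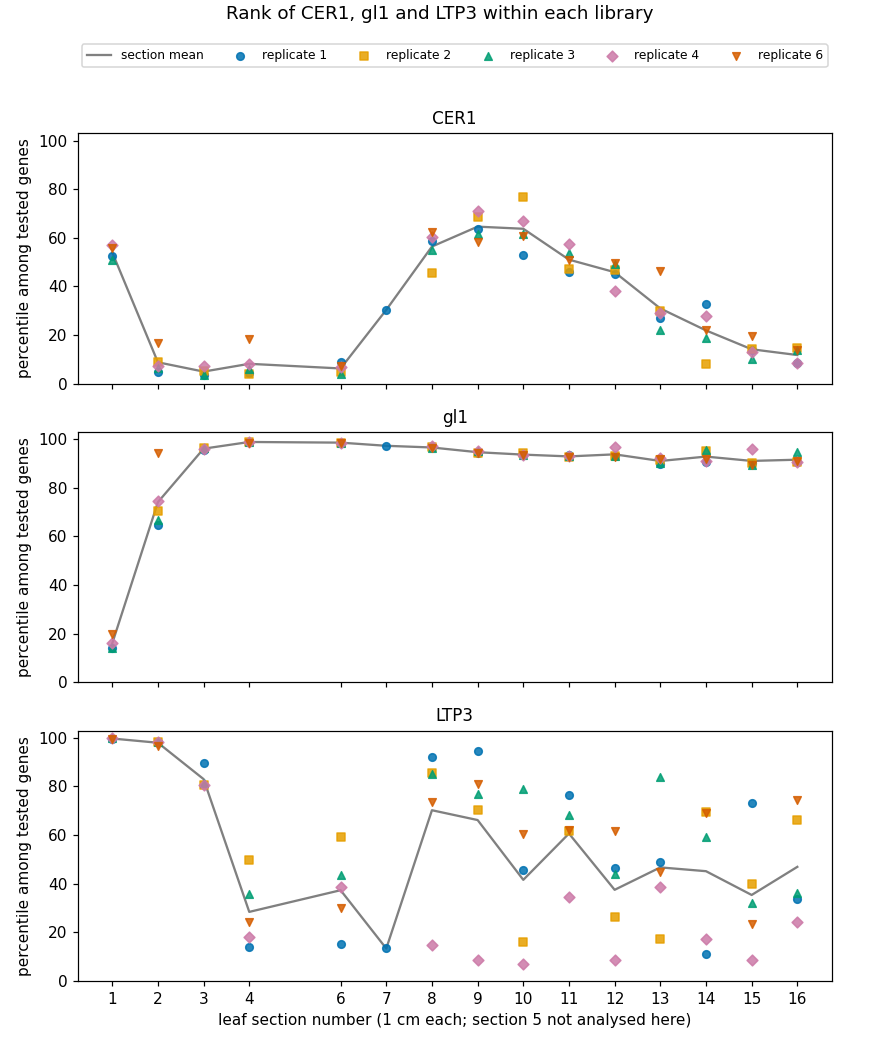
Percentile of CER1, gl1 and LTP3 among the 23052 tested genes of the same library, per used library (points) and as section means (lines), by leaf section. gl1 is at 16.0 in section 1 and at 98.9 in section 4 while LTP3 is at 99.7 and at 28.4, and CER1 is higher in section 9 (64.6) than in section 1 (54.0).

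FPKM is scaled by transcript length, so levels were set beside each other across the genes. How reads shared by similar genes were divided is not given, so the ratios with LTP3 carry the uncertainty of its counting. In section 1 the mean of LTP3 was 1044 times that of gl1, and CER1 was above gl1 in 4 of 4 libraries. In section 2 LTP3 was still 9.66 times gl1. The order turned between sections 2 and 3, where gl1 was above LTP3 in 4 of 4 libraries with a ratio of means of 4.92, and in section 4 the ratio was 195. From section 6 on gl1 was above LTP3 in every used library except 1 of 5 in section 9, and above CER1 in all of them. Its smallest margin over CER1 past section 6 was in sections 9 and 10, at 12.1 and 10.1 times. Over the 15 section means on the log2(FPKM + 1) scale, Pearson's r was -0.71 between gl1 and LTP3, -0.43 between CER1 and gl1 and 0.20 between CER1 and LTP3. Spearman's rho was -0.35, -0.31 and 0.079 in the same order. These describe 15 points that share libraries and plants.

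Differences were also read between sections 1, 4, 9 and 16, which mark the start, the gl1 high, the second CER1 high and the end of the series. They are given on the log2(FPKM + 1) scale, later minus earlier section. From section 1 to 4, gl1 differed by 8.11, LTP3 by -8.32 and CER1 by -2.82. All 5 libraries of section 4 were above all 4 of section 1 for gl1, and below them for LTP3 and CER1. Of all tested genes 24.4% lay entirely above and 27.7% entirely below in this pair of sections. Among the changes of all tested genes, that of gl1 was at percentile 99.9 and that of LTP3 at 0.0043.

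From section 4 to 9, CER1 differed by 2.60, gl1 by -2.82 and LTP3 by 1.62. CER1 was entirely above and gl1 entirely below, as 7.03% and 30.6% of all tested genes were, whereas the ranges of LTP3 overlapped. The LTP3 value was 0.73 when replicate 1 was left out. From section 9 to 16, CER1 differed by -2.79, with all libraries below, as 2.37% of tested genes were, and 8.46% lay entirely above. gl1 differed by -0.49 and LTP3 by -1.22 there, and their ranges overlapped. Without replicate 1 the LTP3 value was -0.28. With a pseudocount of 0.1 in place of 1 the CER1 differences were -5.02, 4.76 and -5.49 in the order of the sections, since its low values lie near 0.

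Other genes of wax and cuticle were taken from lists of symbols: glossy loci, elongation genes, lipid transfer genes and regulators of the epidermis. They matched 17 genes besides the 3, of which 14 were tested with limma, and a gene is said to have risen or fallen at a Benjamini-Hochberg adjusted p under 0.05 over all tested genes and a log2 change of at least 1. The tests measure the spread between pooled replicates. In whole sections, fewer cells of a type and less RNA per cell cannot be told apart, and the epidermal location of the transcripts was not measured.

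From section 1 to 4, 3 of the 14 genes rose and 8 fell, with a median log2 change of -1.06. Of all 23052 tested genes 19.2% rose and 18.1% fell, 37.3% in either direction, with a median change of -0.02. The genes that rose were a glossy gene and both lipid transfer genes, and those that fell were 5 regulators, both genes of the elongation list and gl15. gl4a, named for the glossy4 locus whose product elongates fatty acids for wax, rose from 1.43 ± 0.25 (SD, n = 4) to 534 ± 129 FPKM (SD, n = 5), a log2 change of 7.74 ± 0.70 (SE) with a limma adjusted p of 1.54e-14. PLTP and plt2 are named for phospholipid transfer proteins, and as members of the same large family they share the uncertainty of counting stated for LTP3. PLTP rose from 191 ± 12.0 (SD, n = 4) to 1412 ± 200.4 FPKM (SD, n = 5), a log2 change of 2.87 ± 0.33 (SE) with a limma adjusted p of 4.62e-11. plt2 rose from 214 ± 50.6 (SD, n = 4) to 924 ± 242 FPKM (SD, n = 5), by 2.09 ± 0.37 (SE) on the log2 scale, adjusted p of 3.72e-06. LTP3, the remaining lipid transfer gene, differed in the opposite direction.

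Both genes of the elongation list, AD1 and fae1, fell in the same comparison, whereas gl4a, an elongation gene listed with the glossy loci, rose. AD1, the adherent1 gene that encodes a condensing enzyme of fatty acid elongation, went from 106 ± 9.4 (SD, n = 4) to 2.17 ± 0.63 FPKM (SD, n = 5), a log2 change of -5.09 ± 0.55 (SE) with a limma adjusted p of 5.97e-12. fae1, a fatty acid elongase gene by name, went from 148 ± 2.5 (SD, n = 4) to 43.7 ± 9.4 FPKM (SD, n = 5), a log2 change of -1.77 ± 0.44 (SE) with a limma adjusted p of 0.000515. Among the other glossy genes, gl15, which encodes a transcription factor that keeps the juvenile state of the epidermis, fell by 1.09 ± 0.41 (SE) on the log2 scale with a limma adjusted p of 0.0217. That call was lost when replicate 1, 3, 4 or 6 was left out, with adjusted p from 0.0542 to 0.0795, and with a pseudocount of 0.1, with an adjusted p of 0.334. The log2 change in these settings was between -1.01 and -1.20. glossy2, a gene of wax elongation related to acyltransferases, had a change of -0.49 (limma adjusted p = 0.279), and gl8b, a gene for a reductase of the elongation cycle, one of 0.01.

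Of the regulators of the epidermis, 5 of 6 tested fell and 0 rose from section 1 to 4 in the limma fit, and at an unadjusted p under 0.05 all 6 were lower and 0 higher, against 28.1% and 27.0% of all tested genes. They belong to the HD-ZIP IV family, transcription factors named OCL for the outer cell layer in which several of them are expressed. OCL14 had a log2 change of -3.09, ocl1 of -2.11, OCL8 of -1.69, OCL6 of -1.19 and ocl3 of -1.02. ocl1 went from 51.4 ± 1.9 (SD, n = 4) to 11.3 ± 2.1 FPKM (SD, n = 5), with a limma adjusted p of 7.70e-13. ocl5 had a change of -0.65 and was not called. The ocl3 call was lost under quantile normalization, at -0.99, under upper quartile scaling, at -0.96, with all 75 libraries, at -0.93, and without replicate 1 or 4, at -0.98 and -0.99. WIN1 and ocl4 were too low to be tested, with their highest section means at 4.61 FPKM in section 2 and 4.87 FPKM in section 1.

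Markers of several cell types, the epidermis among them, were read in the same comparison, and most were called. The summed level of 4 genes of dividing cells went from 1955 FPKM (range 1803 to 2281) in section 1 to 116 FPKM (78.4 to 165) in section 4, and all 4 fell, H4C13, PCNA, pcna2 and RNRS3. That of pep1 and C4ppdkZm1, C4 enzymes of the mesophyll, went from 279.9 FPKM (219 to 416) to 6985 FPKM (5915 to 8609), and both rose. So did ME1 and rbcS, genes of the bundle sheath, with log2 changes of 4.33 and 3.02, though reads of rbcS may be shared with close copies. pan1, a receptor-like protein of stomatal subsidiary cell formation, fell from 26.0 ± 6.2 (SD, n = 4) to 1.75 ± 0.26 FPKM (SD, n = 5). crinkly4 (cr4), a receptor kinase of the epidermis, fell by 1.27 on the log2 scale, and dek1, needed for epidermal cell fate, had a change of 0.16 that was not called. The part of cell composition in the changes of the wax genes was not tested.

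**Figure D3:**
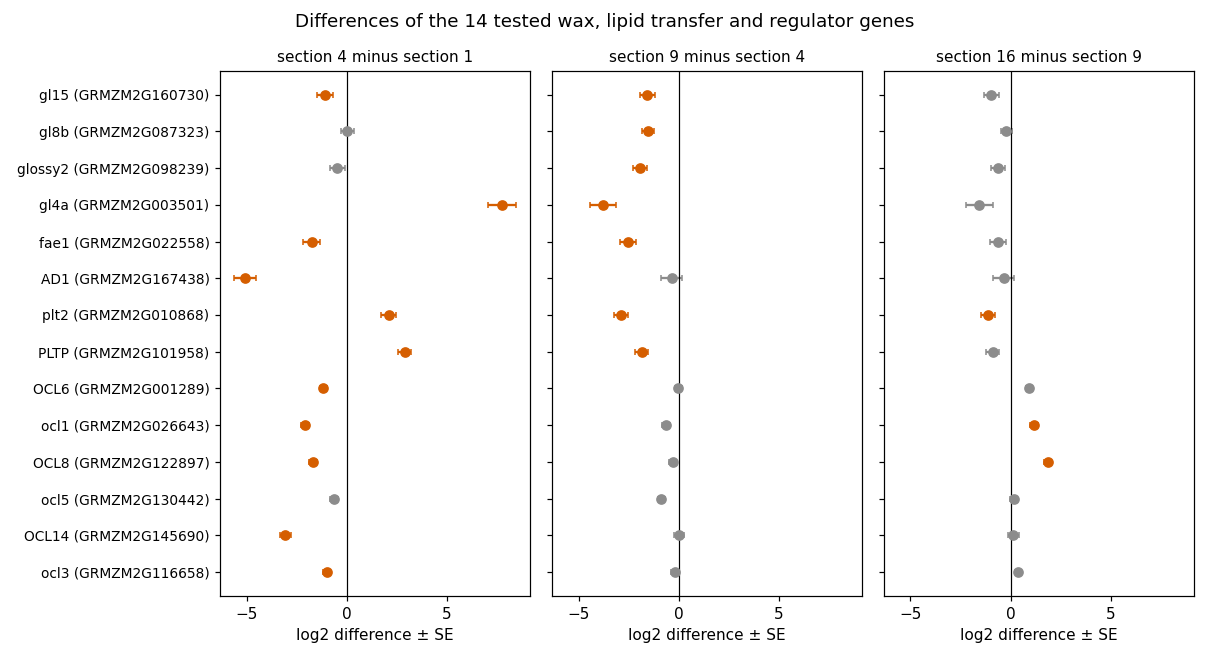
Difference on the log2(FPKM + 1) scale of the 14 tested wax and cuticle genes between sections 4 and 1, 9 and 4, and 16 and 9, with the standard error from limma as bars and genes that passed the test in orange, the others in grey. gl4a (7.74) and AD1 (-5.09) stand at the ends from section 1 to 4, all 7 called genes lie left of 0 from section 4 to 9, and OCL8 (1.86) and ocl1 (1.17) lie right of 0 from section 9 to 16.

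From section 4 to 9, 7 of the 14 genes fell and 0 rose, with a median log2 change of -1.21. Of all tested genes 30.3% fell and 5.03% rose, 35.3% in either direction, with a median of -0.59, so a fall was common in this pair of sections. At an unadjusted limma p under 0.05, 9 of the 14 genes were lower and 0 higher, against 48.8% and 9.86% of all tested genes. The scaling weighs on this split: 14.2% of the genes called had risen in the values as deposited, 42.3% after upper quartile scaling and 50.0% after quantile normalization, which moved the median of all genes by 0.54 and 0.71. All 4 tested glossy genes fell. gl4a went from 534 ± 129 to 36.9 ± 7.0 FPKM (SD, n = 5 each), a log2 change of -3.80 ± 0.66 (SE) with a limma adjusted p of 2.49e-06. glossy2 went from 8.58 ± 2.71 to 1.42 ± 0.50 FPKM (SD, n = 5 each), a log2 change of -1.95 ± 0.35 (SE) with a limma adjusted p of 3.71e-06. gl15 and gl8b had log2 changes of -1.57 and -1.55. The gl8b call was lost under quantile normalization, at -0.83, and the gl15 call under quantile normalization, at -0.84, and upper quartile scaling, at -0.99.

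Both lipid transfer genes fell from section 4 to 9, plt2 by 2.88 and PLTP by 1.86 on the log2 scale. fae1 fell by 2.54, and AD1, already low in section 4, had a change of -0.36 that was not called. Of the regulators of the epidermis 0 of 6 were called by limma, and 2 had an unadjusted p under 0.05, both lower in section 9, as 48.8% of all tested genes were at that limit. Of these, ocl5 with a change of -0.87 and ocl1 with one of -0.65 had adjusted p of 3.64e-05 and 0.00522, below the limit for p but with changes under the threshold of 1. The summed level of the dividing cell genes was 28.4 FPKM in section 9, and that of pep1 and C4ppdkZm1 was 17314 FPKM.

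From section 9 to 16, 2 of the 14 genes rose and 1 fell, with a median log2 change of -0.27. Of all tested genes 7.67% rose and 4.49% fell, 12.2% in either direction, with a median of 0.08. Of the genes called, 63.1% had risen, against 43.9% after upper quartile scaling, 47.3% after quantile normalization and 50.6% without section 16 replicate 6. The genes that rose were regulators of the epidermis. OCL8 went from 5.77 ± 1.04 to 24.7 ± 10.1 FPKM (SD, n = 5 each), a log2 change of 1.86 ± 0.18 (SE) with a limma adjusted p of 8.13e-12. ocl1 went from 7.06 ± 2.55 to 17.3 ± 7.1 FPKM (SD, n = 5 each), a log2 change of 1.17 ± 0.20 (SE) with a limma adjusted p of 8.52e-06. Its change was 0.96 without section 16 replicate 6, 0.93 under quantile normalization and 0.97 under upper quartile scaling, which ended the call.

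The gene that fell from section 9 to 16 was plt2, by 1.13 ± 0.35 (SE) with a limma adjusted p of 0.0139. Its adjusted p was 0.0875 without replicate 1, its change was -0.98 without replicate 4, and with all 75 libraries its adjusted p was 0.0596. gl4a had a change of -1.55 (limma adjusted p = 0.0786) and PLTP one of -0.90 (limma adjusted p = 0.0267). Without the 3 libraries far from their labelled section both passed, gl4a at -2.03 with a limma adjusted p of 0.00839 and PLTP at -1.10 with 0.00272. In that setting 7 of the 14 genes were called in place of 3. Of all tested genes, 2146 rose and 1493 fell in that setting, in place of 1769 and 1034.

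Along all 15 sections, gl4a had the course most like that of gl1 among the 14 tested wax and cuticle genes. Its r was 0.90 over the section means, and PLTP had r = 0.79. gl4a and plt2 were highest in section 4, at 534 and 924 FPKM, and PLTP in section 6 at 1560 FPKM. Of all tested genes 11.6% had their highest mean in section 4. Among the same tested genes, AD1 had the course most like that of LTP3, with r = 0.95. It was followed by ocl3 with 0.88, OCL14 with 0.87 and ocl1 with 0.84. AD1, fae1 and 6 of the 8 regulators were highest in section 1, as 32.7% of all tested genes were, and WIN1 and ocl3 in section 2. The correlations are over 15 points from the same libraries, and the markers pan1, with 0.91, and pcna2, with 0.90, were also close to LTP3. No tested wax or cuticle gene followed CER1 in this way, the closest being OCL6 with r = 0.22. The matched genes too low for the tests, WIN1 and ocl4 among them, were not part of these correlations.

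**Figure D4:**
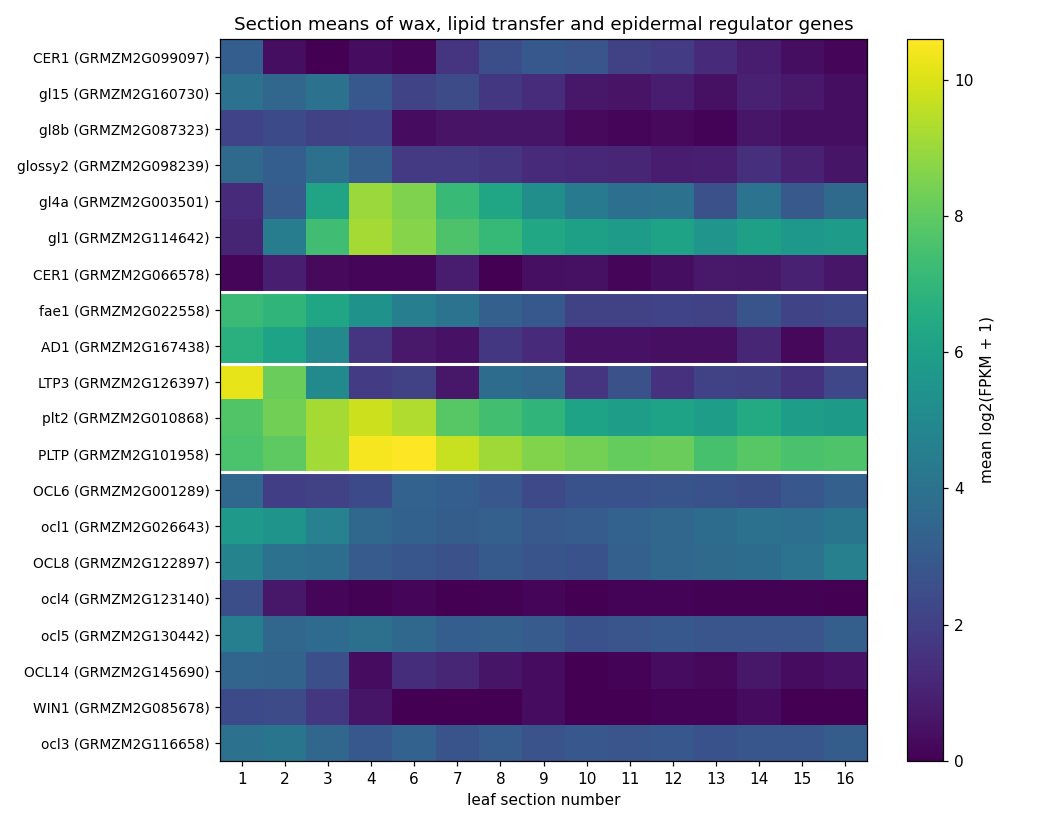
Mean log2(FPKM + 1) per leaf section (columns) of CER1, gl1, LTP3 and the 17 other matched wax and cuticle genes (lines), as colour, with white lines between the glossy, elongation, lipid transfer and regulator lists. gl1 and gl4a share a high at section 4 (598 and 534 FPKM), LTP3 and AD1 one at section 1 (1170 and 106 FPKM), and CER1 (GRMZM2G099097) is brightest at section 1 and sections 8 to 10.

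Several of the libraries in which gl1 stood apart were also apart for gl4a and PLTP. In section 2, gl4a had 4.15, 2.33, 3.32, 5.84 and 79.2 FPKM and PLTP had 195, 215, 178, 219 and 595 FPKM, each highest in replicate 6, as gl1 was. AD1 was lowest in that library, at 34.3 FPKM against 78.3 to 89.4 in the others, and so was LTP3. plt2 lay between 282 and 376 FPKM in section 2. The library did not stand apart for wax genes alone. ME1 was at 1049 FPKM there against 90.8 to 109.5 in the others, and rbcS at 3526 against 1579 to 1755. pep1 was at 942 FPKM there against 145 to 157, and C4ppdkZm1 at 6048 against 989 to 1129. In section 4, gl4a had 525, 648, 571, 608 and 319 FPKM, lowest in replicate 6, as gl1 was. ME1, rbcS, pep1 and C4ppdkZm1 were each highest in that library, ME1 at 1215 FPKM against 577 to 734 in the others. In section 12, gl4a had 98.3 FPKM in replicate 4 against 7.40 to 9.88 in the others. gl4a was also high in section 14 replicates 2 and 3, at 49.4 and 70.1 FPKM, in section 15 replicate 4, at 83.7 FPKM, and in section 16 replicate 3, at 47.5 FPKM. PLTP was the highest of its section in section 12 replicate 4 at 710.5 FPKM, section 14 replicate 3 at 514 FPKM, section 15 replicate 4 at 612 FPKM and section 16 replicate 3 at 362 FPKM, and in section 14 it was next highest in replicate 2 at 363 FPKM. In section 6 replicate 6 gl4a was at 395 FPKM, close to the 393 FPKM of replicate 2, and in section 16 replicate 6 it was at 12.5 FPKM, near the 5.00 to 9.75 FPKM of replicates 1, 2 and 4, so these libraries did not stand apart for gl4a. Each of the 5 libraries of sections 12 to 16 with high gl4a matched another section best. So did section 12 replicates 2, 3 and 6, section 14 replicates 1, 4 and 6, section 15 replicate 6 and section 16 replicates 1 and 4. Section 13 replicate 4 had gl4a at 15.7 FPKM, against 3.16 to 5.03 FPKM in the others, and matched its own section. Whether tissue of another section entered any of these libraries was not tested.

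Courses over the 15 section means were also set beside those of 1809 tested genes, out of 4915 with a symbol or synonym. Genes whose only names had the form of a mapping marker or clone were left aside. The genes most like gl1 were c2 (GRMZM2G422750, r = 0.98), bHLH25 (GRMZM2G081816, 0.98), CYP88A1 (GRMZM2G093195, 0.96), dxs1 (GRMZM2G137151, 0.96) and OFP8 (GRMZM2G026927, 0.96). c2 encodes a chalcone synthase of flavonoid synthesis, CYP88A1 an enzyme of gibberellin synthesis, and dxs1 the entry enzyme of the plastid isoprenoid pathway. c2 went from 9.16 FPKM in section 1 to 362 FPKM in section 4. For LTP3 they were the histone gene H3C2 (GRMZM2G401581, r = 0.97), pdi2 (GRMZM2G163421, 0.96), gst13 (GRMZM2G126781, 0.96), pangloss2 (GRMZM2G034572, 0.96) and bHLH161 (GRMZM2G045883, 0.96). All 5 were highest in section 1, between 25.1 and 37.4 FPKM. For CER1 the likeness was weaker, with phb3 (GRMZM2G410710, r = 0.83), Ots1c (GRMZM5G886883, 0.80), zfp30 (GRMZM2G116079, 0.77), hdz10 (GRMZM2G041127, 0.69) and igl1 (GRMZM2G046191, 0.67). zfp30 went from 39.5 FPKM in section 1 to 2.47 FPKM in section 3. With a pseudocount of 0.1, 4 of the 5 genes stayed among the closest 5 for CER1 and gl1 and 3 of 5 for LTP3.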

How the data were processed

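Polyadenylated RNA of maize leaf sections was extracted with TRIzol and made into strand-specific libraries, per the labels' protocols. The authors deposited FPKM values for 110005 features, and 61077 of these had 0 in all libraries. Per the submitters' processing notes, TopHat2 2.0.10, Cuffdiff 2.1.1 and the build B73 RefGen_v3 were used. How reads shared by similar genes were divided is not given in the sources used here. The design names 6 replicates, of which 1 was not analysed here. Read totals are unknown, so no counting intervals are given.

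All 75 columns were mapped to labelled samples, and the 6 shallow libraries were left out. A gene entered the tests at an average of 1 FPKM or more over the 69 used libraries. Values were taken to log2(FPKM + 1) and fitted in limma (version 3.58.1, under R 4.3.3), using its trend option and all sections in 1 fit. The changes understate those of low genes. The contrasts were section 4 against 1, 9 against 4 and 16 against 9. Tests were checked on data with known changes. Figures were drawn with Python 3.11.15 and matplotlib 3.10.9.

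Gene names came from a RefSeq table of another maize assembly, used for names only. It held 18916 of the features, 6493 of them with a symbol or synonym. Lists were matched on symbols and synonyms, since the table has no product names, and fae1, AD1, the plt pattern and dek1 were added after the identifiers were seen. The 3 genes, the sections compared and the lists were chosen with earlier results of these data known. Named were the 3 genes, all matched wax and cuticle genes, the markers, and per gene the 5 named genes with the highest Pearson r over section means.

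The labels say that replicates were collected on different dates, so the number marks a collection date. After section means were subtracted, same-numbered libraries correlated at a median of 0.0146 and the rest at -0.00436. A fit with the replicate number as a block, other pseudocounts, scalings, filters and libraries were tried.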

Additional observations from a re-analysis of the deposited data

Results flagged for a closer look

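In groups of 4 or 5 libraries, a value was singled out where its gap to the nearest other library took up more of the whole range than Dixon's 95% limit allows. This held for 13 of 41 groups. The limit served to describe single values and not as a test, so no chance rate is given for this count. It presumes normally distributed values, which FPKM near the floor are not, and separate groups. The groups shared libraries, and section 2 replicate 6 and section 4 replicate 6 stood out for both gl1 and CER1. The genes were also selected on these levels. For gl1 the libraries were section 2 replicate 6 at 98.8 FPKM, section 4 replicate 6 at 363 FPKM, section 6 replicate 6 at 442 FPKM, section 12 replicate 4 at 146 FPKM and section 15 replicate 4 at 131 FPKM. Only that of section 4 was low in its group. For CER1 they were section 2 replicate 6 at 1.49 FPKM, section 4 replicate 6 at 1.45 FPKM, section 13 replicate 6 at 2.79 FPKM and section 16 replicate 3 at 0.643 FPKM, each the highest of its group. Replicate 6 accounts for 3 of these 4. For LTP3 they were section 3 replicate 1 at 54.0 FPKM, section 9 replicate 1 at 77.5 FPKM, section 13 replicate 3 at 20.8 FPKM and section 15 replicate 1 at 10.4 FPKM, each the highest of its group.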

How the results depend on the processing

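The highest section was 4 for gl1 and 1 for LTP3 under every scaling tried. For CER1 it was section 1 in the deposited values, section 10 under upper quartile scaling or quantile normalization, and section 9 by rank within the library. Of the 9 log2 differences of the 3 genes, 0 changed sign. That of gl1 from section 1 to 4 was 7.57 with all 75 libraries and 8.92 with a pseudocount of 0.1, that from section 4 to 9 was -2.38 with quantile normalization and -2.08 with upper quartile scaling, and that of LTP3 from section 1 to 4 was -9.74 after quantile normalization. The counts of called genes kept within 1.5 times of the values reported for section 4 against 1 and 9 against 4. From section 9 to 16, 2803 genes were called, against 1204 with all 75 libraries and 1477 with only the libraries of the 2 sections fitted, which leaves fewer to estimate the spread. Of the wax and cuticle genes, 3 were called there, against 2 with all 75 libraries, 5 with a pseudocount of 0.1, 5 after upper quartile scaling, 2 without section 16 replicate 6 and 7 without the 3 libraries far from their labelled section. Leaving out 1 replicate number at a time gave 2 to 6, with 2 without replicate 1, 6 without replicate 3 and 2 without replicate 4. The cause of this was not tested. The calls over all tested genes moved too, from 1769 that rose and 1034 that fell. They were 1946 and 1469 with a pseudocount of 0.1, and 1199 and 1532 after upper quartile scaling. Without section 16 replicate 6 they were 1190 and 1163, and without the 3 libraries 2146 and 1493. They were 1857 and 706 without replicate 1, 1992 and 1230 without replicate 3, and 1806 and 882 without replicate 4. With the replicate number as a block, 8659, 8149 and 2812 genes were called in the 3 comparisons in place of 8591, 8140 and 2803, and 11, 7 and 3 wax and cuticle genes, so the pairing changed no count of these by 1.5 times. CER1 was listed at 0 most often of the 3 genes, in 13 of 69 used libraries. Its values near 0 in sections 2 to 6 and 16 may rest on few fragments, but read totals are unknown. Relative depth was 0.354 to 1.68 in the used libraries of sections 2 to 6. In sections 8 and 9, where CER1 was higher, it was 0.149 to 0.841. The part of depth in the CER1 values was not tested.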
